A study of Mus musculus with 6 samples.

Results

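The interleukins and the tumour necrosis factor (TNF) superfamily, with their receptors, were followed in the prostates of hormone-treated and control mice. Members were the genes whose symbol began with Il and a number, or was Tnf, or began with Tnfsf (TNF superfamily, ligands) or Tnfrsf (TNF receptor superfamily). Among the 34745 genes of the deposited data there were 119 members, with 117 different symbols, since Il11ra2 is listed 3 times. They were 39 interleukin ligands, 44 interleukin receptors or binding proteins, 13 TNF ligands and 20 TNF receptors; the remaining 3 were the enzyme Il4i1 and the antisense transcripts Il1bos and Tnfsf13os, which carry a matching symbol but are neither ligand nor receptor. RNA from prostate tissue of 6 male C57BL/6 mice, which entered the study as young adults, was sequenced. In the T + E2 group, 3 mice carried a subcutaneous slow-release pellet that contained testosterone and oestradiol for 12 weeks, with monthly renewal, as a model of benign prostatic hyperplasia (BPH) with bladder outlet obstruction. In the CON group, 3 mice had a skin incision that was closed again and received no hormone, so that neither a pellet without hormone nor either hormone alone was measured. The comparison asks which cytokine and cytokine receptor genes differ between the hormone-induced and the normal prostate.

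Interleukins are secreted proteins by which leukocytes, epithelium and stroma signal to each other, mostly through receptors that work with Janus kinases (JAK) and STAT transcription factors. The IL-1 family and the TNF superfamily signal differently: IL-1 family receptors recruit the adaptor MyD88 and TNF receptors recruit TRAF proteins or death domain adaptors, and both routes lead to the transcription factor NF-kB. Both families also contain natural inhibitors, such as receptor antagonists, soluble binding proteins and decoy receptors that bind a ligand without a signal, and inflammation is a common feature of human BPH tissue.

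Reads counted on genes totalled 14816146 to 16555549 per mouse, and values are given as counts per 1000000 reads scaled by the TMM method (CPM). A floor of 3 counts, below which a gene was not distinguished from absence, came to 0.183 to 0.208 CPM and covers counting error only. The prostate luminal markers Pbsn and Tgm4 had 19098 counts or more in every mouse, as the tissue label says, but both fell in the T + E2 group, Pbsn 9.81-fold and Tgm4 7.5-fold (adjusted p = 2.45e-05 and 0.000158, edgeR). Mouse 2 of each group also held transcripts of seminal vesicle secretory proteins: Svs2, Svs4 and Svs5 together reached 9851 CPM in CON mouse 2 and 600.2 CPM in T + E2 mouse 2. Calls that did not hold without these 2 mice are named with the gene. In bulk tissue, fewer cells of a type and less RNA per cell cannot be told apart.

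Of the 119 members, 20 had no count in any mouse and 34 had no more than 3 counts in any mouse. Enough reads for the test fell on 63 members. With edgeR (quasi-likelihood F test, p-values corrected by the Benjamini-Hochberg method across all 15580 genes tested), 7 members were higher in the T + E2 group at an adjusted p under 0.05 (11.1% of the members tested, against 10.4% of all tested genes), and 5 were lower (7.94% against 9.25%). With a fold change over 2 required as well, as for the DEGs of the study, 3 members were higher (4.76% against 4.27% of all tested genes) and 0 were lower (against 3.38%). No member was lower at both thresholds by DESeq2 or limma either. At an unadjusted p under 0.05 edgeR gave 2 with a fall over 2-fold (3.17% of the members tested). The share of all genes at that unadjusted threshold was not counted, so whether 2 is few or many is not known. In 24 of the 63 members (38.1%) the 3 T + E2 values all lay on one side of the 3 CON values, which was so for 40.7% of all tested genes. The shares of members called were thus close to those of all genes, and the median log2 fold change of the members was -0.02, beside -0.00207 for all tested genes.

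**Figure D1:**
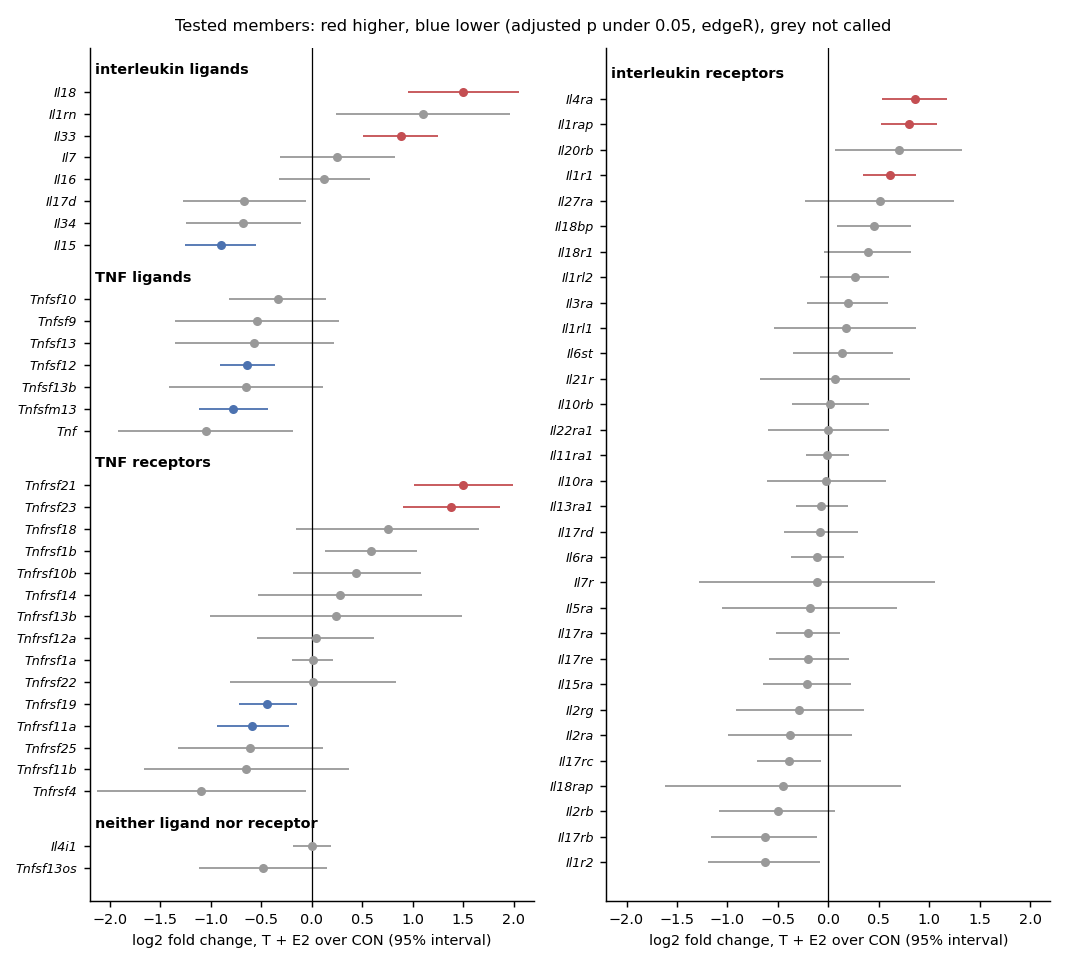
Log2 fold change (T + E2 over CON, edgeR) of the 63 tested members by class, with its 95% interval; red, higher, and blue, lower, at an adjusted p under 0.05; grey, not called. All 7 tested TNF ligands lie left of 0, and the 7 genes called higher are 2 interleukin ligands, 3 interleukin receptors and 2 TNF receptors.

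Among ligands, very few interleukins were present at a level that could be tested. Of 39 interleukin ligands, 15 had no count in any mouse, 25 had no more than 3 counts in any mouse and 8 were tested. Il13, a type 2 cytokine, and Il17a, the founding IL-17, had no count in any of the 6 mice, which allows up to 0.183 to 0.208 CPM. Il4, the other main type 2 cytokine, had 1 count in T + E2 mouse 1 alone. Il6, an inflammatory cytokine often measured in BPH, had 0 counts in all 3 CON mice and 1, 1 and 2 counts in T + E2 mice, all at or under the floor. Il10, an anti-inflammatory cytokine, had 2, 1 and 1 counts against 0, 4 and 1. These counts allow no statement on a difference. Il1a had 3, 2 and 2 counts in CON mice and 0, 1 and 1 in T + E2 mice, and Il1b, its secreted relative, had 23, 9 and 11 against 8, 4 and 7. All counts of Il1a were at or under the floor, and the nearest counts of the 2 groups for Il1b were 9 and 8. Neither IL-1 agonist had enough reads for the test, so no direction is read from them. When the 36 untested members with any count were tested without a filter, 0 were called by edgeR (2 had an unadjusted p under 0.05). The lowest adjusted p was 0.163 for Tnfsf15, and DESeq2 called 0 of the 17 for which it gave an adjusted p.

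By FPKM (fragments per kilobase of gene and library size, which corrects for gene length), the ligands with the highest mean level over the 6 mice were Tnfsf12 (13.1 FPKM), Il33 (9.16), Il15 (5.86), Il18 (5.62) and Tnfsfm13 (4.74). All 5 were called, with Il33 and Il18 higher and Tnfsf12, Il15 and Tnfsfm13 lower in the T + E2 group. Level and the chance to be called are not independent, since low genes lack the reads for a call. The FPKM of a gene rests on the length in the deposited table, which for Il18 is 714 bases, where release M21 of the GENCODE annotation holds 1031 exon bases. Summed over all 13 TNF ligands, the FPKM was 29 to 29.8 in CON mice and 16.7 to 21.2 in T + E2 mice, without overlap; most of it came from 1 locus, and without Tnfsf12, Tnfsfm13 and Tnfsf13 the sums were 4.33 to 4.91 and 2.87 to 3.31. Summed over the 39 interleukin ligands it was 24.3 to 27.7 in CON mice and 29.3 to 30.9 in T + E2 mice, and without Il15, Il18 and Il33 it was 7.9 to 9.67 against 5.23 to 6.7. The largest part of this remainder was Il17d alone, with a mean of 5.32 FPKM in CON mice and 3.25 FPKM in T + E2 mice. Il17d was not called (adjusted p = 0.115, edgeR), so the lower sum is not read as a broad fall of interleukins.

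**Figure D2:**
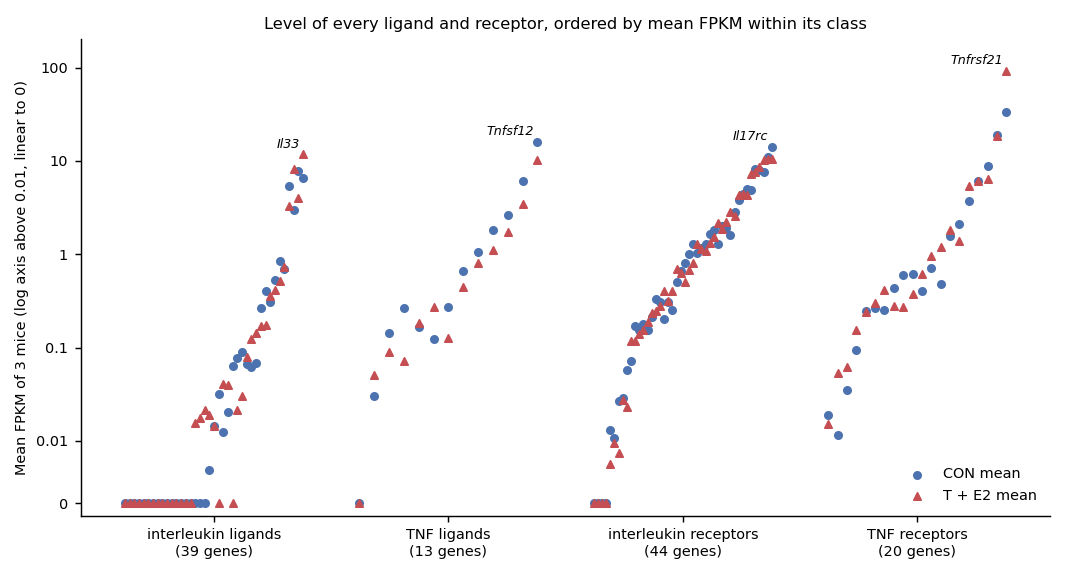
Mean FPKM of each ligand and receptor in the CON group (blue circles) and the T + E2 group (red triangles), 3 mice each, on a log axis that is linear below 0.01; genes are ordered by level within the class. Most interleukin ligands lie at or near 0, while Tnfrsf21 is the highest receptor in both groups, with a mean of 62.6 FPKM over all mice.

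Il18, an IL-1 family cytokine that epithelial cells and macrophages store as a precursor, rose. It had 2.05, 1.91 and 2.39 CPM in CON mice and 7.33, 5.97 and 4.67 CPM in T + E2 mice, and the lowest T + E2 value was above the highest CON value. The means were 2.12 ± 0.248 CPM and 5.99 ± 1.33 CPM (SD, n = 3 each), a log2 fold change of 1.5 (SE 0.24, 2.82-fold, adjusted p = 0.00403, edgeR). The deposited Il18 gene (ENSMUSG00000039217) lies on the plus strand at chr9:50575273-50581837 of build GRCm38. Without mouse 2 of each group the adjusted p of Il18 was 0.0557.

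Il33, an alarmin kept in the nuclei of epithelial, endothelial and stromal cells and released on damage, rose as well. Its values were 32.1, 27.5 and 42.4 CPM in CON mice and 57.8, 60.8 and 69.5 CPM in T + E2 mice. The groups did not overlap, and the log2 fold change was 0.88 (SE 0.16, 1.84-fold, adjusted p = 0.0077, edgeR). Il33 (chr19:29925114-29960718, plus strand) missed the threshold without mouse 2 of each group, at an adjusted p of 0.0517. Among the 4 epithelial markers Epcam, Cdh1, Krt8 and Krt18, 2 rose and 1 fell in the same mice, and their sum was 1943 to 2184 CPM in the CON group and 2328 to 2395 CPM in the T + E2 group. Among the basal markers Krt5, Krt14 and Trp63, whose sum was 89.5 to 151 CPM and 124 to 171 CPM, Trp63 alone rose, and the luminal secretory genes Pbsn and Tgm4 fell as given above. The part of these markers in the values of Il18 and Il33 was not tested.

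The stretches before the starts of Il18 and Il33 are shown because these are the IL-1 family ligands that rose, and they are followed by those of Il1r1 and Tnfrsf21, an IL-1 receptor and the most abundant receptor, which rose too. Sequences are the 250 bases before a RefSeq start on GRCm38.p6, 5′ to 3′ on the strand of the gene, with matches to the motifs named next in capitals.
Il18 (chr9:50554450-50554699, plus strand): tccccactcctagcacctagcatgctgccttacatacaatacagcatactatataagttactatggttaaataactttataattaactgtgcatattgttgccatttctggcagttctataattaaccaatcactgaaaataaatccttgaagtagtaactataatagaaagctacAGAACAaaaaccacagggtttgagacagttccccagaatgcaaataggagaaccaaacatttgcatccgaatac
Il33 (chr19:29924863-29925112, plus strand): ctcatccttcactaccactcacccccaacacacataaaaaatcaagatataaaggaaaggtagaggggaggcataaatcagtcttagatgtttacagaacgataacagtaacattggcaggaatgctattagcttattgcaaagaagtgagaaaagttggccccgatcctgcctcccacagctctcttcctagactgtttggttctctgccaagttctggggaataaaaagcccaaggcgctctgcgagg
Il1r1 (chr1:40266336-40266585, plus strand): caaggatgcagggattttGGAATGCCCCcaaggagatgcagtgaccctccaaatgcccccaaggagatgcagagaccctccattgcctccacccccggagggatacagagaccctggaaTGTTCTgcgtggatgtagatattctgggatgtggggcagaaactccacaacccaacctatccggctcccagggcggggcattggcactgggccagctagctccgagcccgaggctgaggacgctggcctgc
Tnfrsf21 (chr17:43016305-43016554, plus strand): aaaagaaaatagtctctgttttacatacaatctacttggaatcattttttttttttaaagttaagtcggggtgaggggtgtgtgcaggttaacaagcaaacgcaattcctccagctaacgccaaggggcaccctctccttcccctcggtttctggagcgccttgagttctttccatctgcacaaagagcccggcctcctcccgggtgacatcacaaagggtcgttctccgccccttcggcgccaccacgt
The window of Il18 lies upstream of the start that the deposited table gives. Il33 and Il1r1 have 2 RefSeq starts each; the window of Il33 is the one next to the deposited start, and that of Il1r1 lies within the deposited gene and is shown because it holds matches. Both strands were searched for the kappa B site of NF-kB, the AP-1 site TGANTCA, the STAT site (TTC and GAA, 3 bases apart), the oestrogen response element (GGTCA and TGACC, 3 bases apart) and the androgen receptor half-site AGAACA. The window of Il18 holds 1 androgen receptor half-site, and that of Il1r1 holds 1 half-site, on the opposite strand, and 1 kappa B site; the windows of Il33 and Tnfrsf21 hold none of the 5 motifs. Of the 13 RefSeq windows of 10 called members, 3 hold any match, the other being that of Tnfsfm13 with 1 half-site. Of 32851 promoter windows of the same length, 16.1% hold the half-site, 7.25% a kappa B site, 6.75% an AP-1 site, 7.02% a STAT site and 0.0639% the oestrogen response element. A match of letters is a description and shows no binding.

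Il15, which supports natural killer cells and memory T cells, fell. Its values were 15.2, 12.1 and 16.3 CPM in CON mice and 7.19, 8.22 and 7.87 CPM in T + E2 mice, all 3 below the lowest CON value. The log2 fold change was -0.90 (SE 0.15, 1.87-fold lower, adjusted p = 0.00544, edgeR), and Il15 (chr8:82331637-82403222, minus strand) was called in every alternative and without any 1 mouse. The 5 T cell markers Cd3d, Cd3e, Cd3g, Cd4 and Cd8a summed to 3.33 to 9.14 CPM in CON mice and 4.8 to 8.28 CPM in T + E2 mice. The 3 general leukocyte markers Ptprc, Lcp1 and Coro1a summed to 159.5 to 182 against 142 to 153 CPM. Most of that sum was Lcp1, at 129, 157 and 164 against 119, 115 and 129 CPM. The log2 fold changes were -0.31 for Lcp1, 0.49 for Ptprc and -0.01 for Coro1a. Of these 8 genes 7 were tested and none was called. Of the 3 markers of natural killer and innate lymphoid cells, Ncr1, Klrb1c and Gata3, 1 was tested and not called. The part of all these markers in the fall of Il15 was not tested.

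Il1rn, the antagonist that blocks the IL-1 receptor, had 0.728, 0.591 and 0.314 CPM in CON mice and 0.968, 1.28 and 1.27 CPM in T + E2 mice. These groups did not overlap, but the log2 fold change of 1.10 (95% interval 0.24 to 1.96) did not pass the threshold (adjusted p = 0.0749, edgeR). The 4 other tested interleukin ligands, which were Il7, Il16, Il17d and Il34, had log2 fold changes from -0.68 to 0.25 and were not called.

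All 7 tested TNF ligands had log2 fold changes below 0, and 2 of them passed the test, beside 9.25% lower among all tested genes. The median of the 7 ligands was -0.64, beside -0.00207 for all tested genes. These 7 are not independent, since Tnfsf13 shares 983 of its 1637 exon bases with Tnfsfm13, which also overlaps Tnfsf12 as given below. Of 6 untested TNF ligands, Tnfsf15 had more counts in T + E2 mice (9, 12 and 21, against 5, 8 and 6 in CON mice). Tnfsf4 and Tnfsf8 had fewer in sum (6 against 23 and 16 against 25). Tnfsf12, which encodes TWEAK, a ligand that acts on tissue growth and repair, fell from 22.7, 26.1 and 27.7 CPM in CON mice to 15.7, 15.7 and 17.6 CPM in T + E2 mice. Its log2 fold change was -0.64 (SE 0.12, 1.56-fold lower, adjusted p = 0.00721, edgeR); without mouse 2 of each group the adjusted p was 0.0791. Tnfsfm13, the read-through locus that joins Tnfsf12 to the neighbouring Tnfsf13, fell from 21.7, 16.2 and 20.1 CPM to 10.2, 11 and 12.7 CPM. For Tnfsfm13 the log2 fold change was -0.78 (SE 0.15, 1.71-fold lower, adjusted p = 0.00969, edgeR). Neither gene had overlapping groups. These are not independent results, since Tnfsf12 (chr11:69686250-69695849) lies within Tnfsfm13 (chr11:69682577-69696098) on the same minus strand and shares 731 of its 1515 exon bases with it, so that reads there cannot be assigned to one of them with certainty. Summed over Tnfsf12, Tnfsfm13 and Tnfsf13, which encodes the B cell ligand APRIL, the locus had 51.6, 49.8 and 53.4 CPM in CON mice and 28.5, 30.6 and 37.4 CPM in T + E2 mice.

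Tnf itself was low. It had 1.06, 0.657 and 0.754 CPM in CON mice and 0.484, 0.365 and 0.334 CPM in T + E2 mice, so that the groups did not overlap, with a log2 fold change of -1.05 (95% interval -1.92 to -0.19) that did not pass the threshold (adjusted p = 0.0875, edgeR). Tnfsf10, which encodes the death ligand TRAIL, had a log2 fold change of -0.34 (adjusted p = 0.285). Tnfsf13b, which encodes the B cell survival factor BAFF, had one of -0.65 (adjusted p = 0.205). Tnfsf11, which encodes RANKL, the ligand of Tnfrsf11a, had 3, 0 and 0 counts in CON mice and 0, 0 and 5 in T + E2 mice and was not tested.

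**Figure D3:**
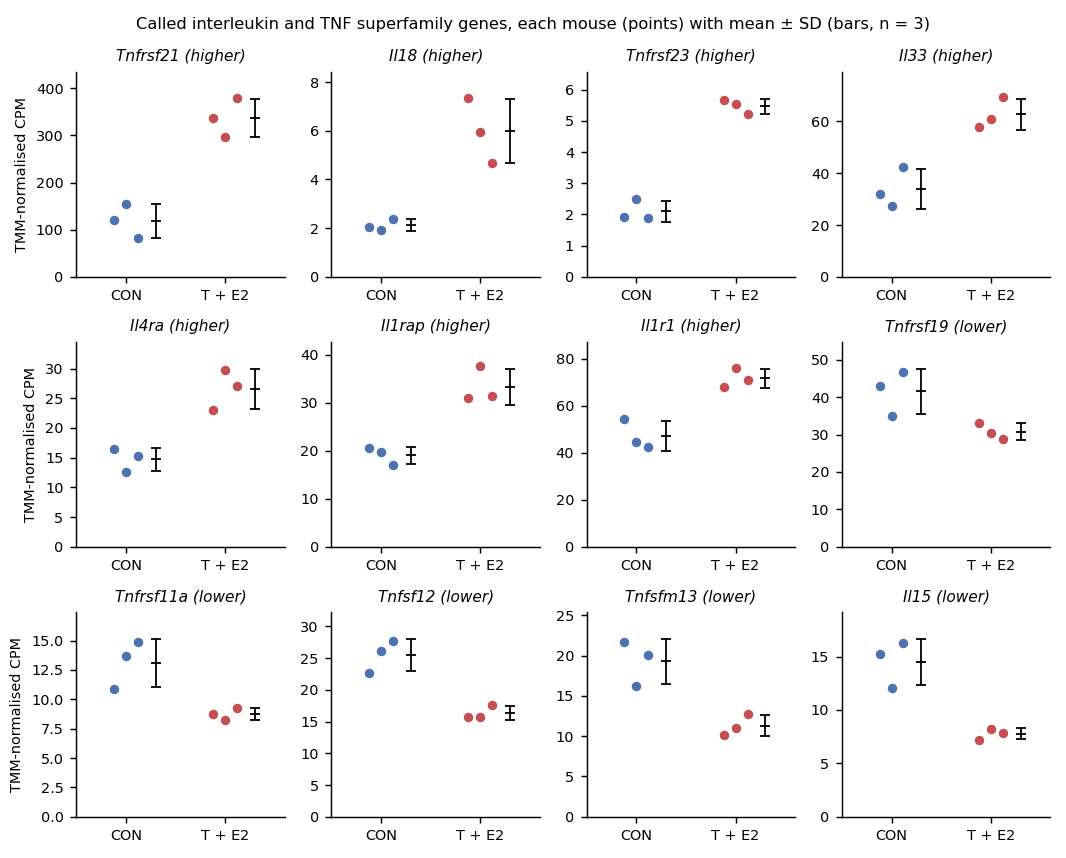
TMM-normalised CPM of the 12 called members in each mouse (points; blue, CON; red, T + E2) with the mean and SD (bars, n = 3), each axis from 0. In every panel the 3 values of one group lie on one side of the 3 of the other; for Tnfrsf21 they run from 82.9 in a CON mouse to 379 in a T + E2 mouse.

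Interleukin receptors were detected more often than interleukin ligands, and the gap was smaller in the TNF superfamily. Of the 44 interleukin receptor genes 31 were tested and 4 had no count in any mouse, and of the 20 TNF receptors 15 were tested and none was at 0 in every mouse, while of the 13 TNF ligands 12 had a count and 7 were tested. The 5 receptors with the highest mean FPKM were Tnfrsf21 (62.6 FPKM), Tnfrsf1a (18.8), Il17rc (12.3), Il11ra1 (10.8) and Il18bp (8.89). Of these only Tnfrsf21 was called.

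The IL-1 family receptors had 8 tested genes, of which 2 rose and none fell, beside 10.4% higher and 9.25% lower among all tested genes. Il1r1, the signalling receptor for IL-1, rose from 54.4, 44.6 and 42.4 CPM in CON mice to 68, 76.1 and 71.1 CPM in T + E2 mice. Its log2 fold change was 0.61 (SE 0.12, 1.52-fold, adjusted p = 0.00894, edgeR); Il1r1 (chr1:40225080-40317257) missed the threshold without mouse 2 of each group, at 0.0944. Il1rap, the accessory chain that the receptors for IL-1, IL-33 and IL-36 share, rose from 20.5, 19.8 and 17.1 CPM to 31.1, 37.7 and 31.4 CPM. For Il1rap (chr16:26581704-26730117) the log2 fold change was 0.80 (SE 0.12, 1.74-fold, adjusted p = 0.00315, edgeR). Neither gene had overlapping groups. Il1rl1, which encodes ST2, the receptor of IL-33, was low at 1.8 to 3.65 CPM over all 6 mice, with a log2 fold change of 0.17 (95% interval -0.54 to 0.87, adjusted p = 0.738, edgeR). Mast cells carry ST2, and 3 of the 4 mast cell markers Cpa3, Kit, Cma1 and Mcpt4 fell in the T + E2 group, with a sum of 22.1 to 31.1 CPM in CON mice and 11.7 to 16.4 CPM in T + E2 mice; their part in the value of Il1rl1 was not tested.

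The receptor side of IL-18 held no call. Il18r1, its binding chain, had a log2 fold change of 0.39 (95% interval -0.04 to 0.82, adjusted p = 0.177, edgeR). Il18rap, the other chain of the receptor, had one of -0.45 (95% interval -1.62 to 0.72, adjusted p = 0.572, edgeR). Il18bp, the secreted protein that neutralises IL-18, had 12.8, 9.79 and 9.05 CPM in CON mice and 15.5, 14.6 and 13.3 CPM in T + E2 mice. The groups of Il18bp did not overlap, and its log2 fold change of 0.45 missed the threshold (adjusted p = 0.0834, edgeR) but passed it without CON mouse 1 (0.0309). Il1r2, the decoy receptor for IL-1, had a log2 fold change of -0.63 (adjusted p = 0.105, edgeR), opposite in sign to that of Il1r1; it is named after its value was seen.

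Il4ra, the chain through which IL-4 and IL-13 both signal, rose from 16.4, 12.6 and 15.2 CPM in CON mice to 23.1, 29.8 and 27 CPM in T + E2 mice, without overlap. The log2 fold change was 0.86 (SE 0.14, 1.81-fold, adjusted p = 0.00487, edgeR), and Il4ra (chr7:125552120-125579474, plus strand) shares 571 of 6002 exon bases (9.5%) with Gm44876 on the opposite strand. Whether counting used the strand is not given in the sources used here. Il4ra was the only called gene among the 8 tested receptors of the common gamma chain and type 2 group, in which 2 log2 fold changes were above 0. Macrophages carry this receptor, and of the 5 macrophage markers Adgre1, Csf1r, Cd68, Mrc1 and C1qa, Mrc1 and C1qa rose. The others were not called, among them Csf1r (log2 fold change 0.23, adjusted p = 0.36, edgeR). The sum of the 5 markers was 124 to 175 CPM in CON mice and 186 to 282 CPM in T + E2 mice, and their part in the rise of Il4ra was not tested. The receptor chains for IL-15 were not called, with log2 fold changes of -0.21 for Il15ra (adjusted p = 0.456, edgeR) and -0.50 for Il2rb (adjusted p = 0.193), and the 3 values of Il2rb in T + E2 mice lay below those in CON mice.

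Il6ra and Il6st, the binding chain and the signalling chain (gp130) of the IL-6 receptor, had log2 fold changes of -0.11 (95% interval -0.37 to 0.15) and 0.14 (95% interval -0.35 to 0.64) and were not called. Il11ra1, which pairs with Il6st, had 64.6, 72.9 and 68.2 CPM in CON mice and 70.6, 69 and 64.6 CPM in T + E2 mice, and the 95% interval of its log2 fold change ran from -0.22 to 0.20. Transcripts of Il11ra1 and Il11ra2 are 99% identical over 1299 aligned bases, so reads could be shared between them, and summed over all 4 rows of both symbols the means were 68.8 ± 4.37 CPM and 68.6 ± 3.36 CPM (SD, n = 3 each). Il11ra1 also matches Gm13305 (98.9% identical over 1953 aligned bases), which this sum leaves out. All 5 IL-17 receptors were tested and none was called. Their log2 fold changes were all below 0, with a median of -0.20. Il17rc, the most abundant of them, had 39.3, 45.6 and 56.9 CPM against 37.3, 34 and 36.8 CPM (log2 fold change -0.39, adjusted p = 0.0841, edgeR; 0.036 without CON mouse 1).

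Among the 15 tested TNF receptors 2 rose, both past the fold threshold, and 2 fell. Of all tested genes 10.4% rose, 4.27% past the fold threshold, and 9.25% fell. Tnfrsf21, which encodes death receptor 6, a death domain receptor best known from neurons and T cells, had 121, 155 and 82.9 CPM in CON mice and 337, 297 and 379 CPM in T + E2 mice. The lowest T + E2 mouse was well above the highest CON mouse. The means were 119 ± 35.8 CPM and 337 ± 41 CPM (SD, n = 3 each), a log2 fold change of 1.5 (SE 0.21, 2.83-fold, adjusted p = 0.00255, edgeR). Tnfrsf21 (ENSMUSG00000023915, chr17:43016555-43089188, plus strand) was called under each of the 8 other settings without each mouse in turn and without mouse 2 of both groups, and its log2 fold change there ran from 1.29 to 1.81. It carried most of the class. The FPKM of all 20 TNF receptors summed to 84.2, 85.9 and 66.5 in CON mice and 132, 125 and 152 in T + E2 mice, and without Tnfrsf21 the sums were 42.2 to 50.2 and 43.5 to 46.3, which overlap.

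Tnfrsf23, a mouse decoy receptor for TRAIL, rose from 1.92, 2.5 and 1.89 CPM in CON mice to 5.67, 5.54 and 5.21 CPM in T + E2 mice. The groups were far apart relative to their spread (2.10 ± 0.343 and 5.47 ± 0.241 CPM, SD, n = 3 each), with a log2 fold change of 1.38 (SE 0.21, 2.60-fold, adjusted p = 0.00315, edgeR). Its neighbour Tnfrsf22, the other TRAIL decoy, had 2.12, 1.18 and 2.64 CPM against 2.21, 2.37 and 1.4 CPM and a log2 fold change of 0.01. The transcripts of the pair are 91.9% identical over 1451 aligned bases, so some reads could have been split between them. Summed over both, the counts were 4.08 ± 0.425 CPM in the CON group and 7.47 ± 0.747 CPM in the T + E2 group (SD, n = 3 each), with no overlap. Tnfrsf22 also matches transcripts of other genes, such as Tmem72 (97.8% identical over 766 aligned bases). Their part in the level of Tnfrsf22 and in the sum of the pair was not tested. Tnfrsf23 lies at chr7:143665809-143685872 on the minus strand.

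The falls among TNF receptors were small. Tnfrsf11a, which encodes RANK, the receptor of RANKL, fell from 10.9, 13.7 and 14.9 CPM to 8.72, 8.28 and 9.28 CPM (log2 fold change -0.59, SE 0.15, adjusted p = 0.0331, edgeR). Tnfrsf19, which encodes TROY, a receptor found on stem and progenitor cells of several epithelia, fell from 43, 35 and 46.8 CPM to 33.1, 30.4 and 28.8 CPM (log2 fold change -0.44, SE 0.12, adjusted p = 0.0435, edgeR). Groups did not overlap in either gene, but both calls rest on the full set of mice. Tnfrsf11a was still called in 1 of the 6 fits that left out a mouse, which was the fit without CON mouse 1 (adjusted p = 0.0177), and its adjusted p was 0.0894 without CON mouse 2, 0.111 without CON mouse 3, and 0.0875, 0.0966 and 0.0574 without T + E2 mice 1, 2 and 3; without mouse 2 of each group it was 0.202. Tnfrsf19 was still called in 1 of the 6, which was the fit without CON mouse 2 (0.0197), and its adjusted p was 0.0993 without CON mouse 1, 0.13 without CON mouse 3, and 0.0683, 0.115 and 0.105 without T + E2 mice 1, 2 and 3; without mouse 2 of each group it was 0.0601.

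The classic TNF receptors gave no call. Tnfrsf1a, the broadly expressed receptor with a death domain, was nearly level, at 70.5, 70.5 and 70.9 CPM in CON mice and 74.9, 65.2 and 73.1 CPM in T + E2 mice, and the 95% interval of its log2 fold change ran from -0.20 to 0.21. Tnfrsf1b, found mainly on leukocytes and endothelium, had 18.2, 12.4 and 12.1 CPM against 17.8, 20.8 and 25.6 CPM. These groups overlapped, since CON mouse 1 was above T + E2 mouse 1, and the log2 fold change of 0.59 missed the threshold (adjusted p = 0.0755, edgeR), which it passed without CON mouse 1 (0.0269) and by DESeq2 with all mice (0.0462). Tnfrsf11b, which encodes osteoprotegerin, the soluble inhibitor of RANKL, had a log2 fold change of -0.65 (adjusted p = 0.333), and Tnfrsf12a, which encodes the TWEAK receptor Fn14, one of 0.04 (95% interval -0.54 to 0.62).

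Ligands and receptors were set side by side in 58 known pairs. In 31 pairs the receptor could be tested and the ligand could not, in 3 the ligand alone, in 14 both and in 10 neither. The list holds the main binding partners and not every shared or decoy chain: Il33 with the accessory chain Il1rap, both called higher, is not in it, nor is Tnfsf10 with the decoy Tnfrsf23. Within the list no pair had both partners called, and in 11 pairs 1 partner was called: the ligand in the pairs of Il18 with Il18r1 and Il18bp, of Il33 with Il1rl1, of Il15 with Il15ra and Il2rb, and of Tnfsf12 with Tnfrsf12a, and the receptor in those of Il1r1 with Il1a, Il1b and Il1rn, of Il4ra with Il4, and of Tnfrsf11a with Tnfsf11. For the 5 pairs in which the receptor was called, none of the ligands Il1a, Il1b, Il4 and Tnfsf11 had enough reads for a test, and Il1rn was tested and not called.

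**Figure D4:**
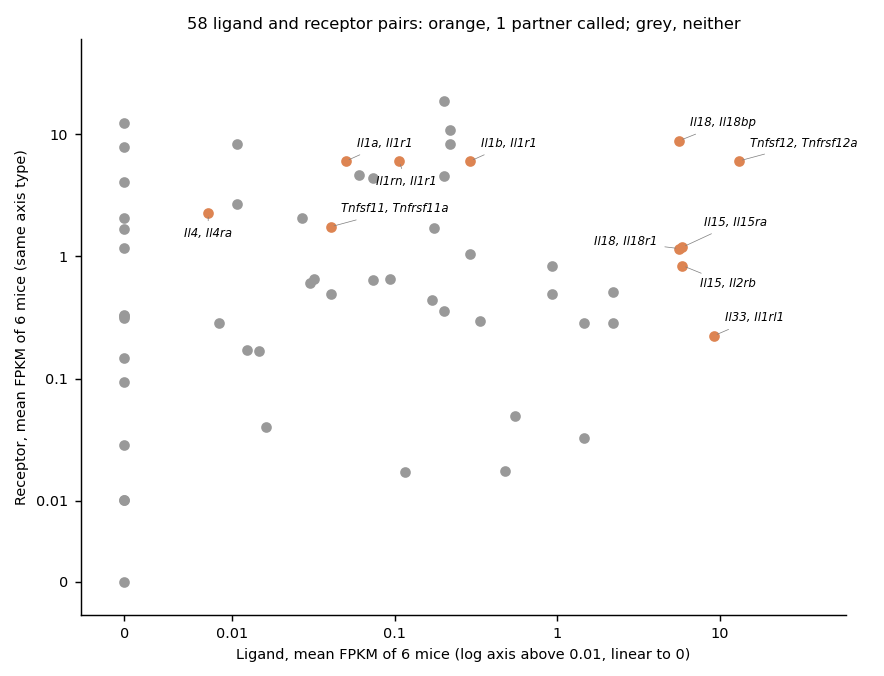
Mean FPKM over the 6 mice of the ligand (horizontal) and the receptor (vertical) of 58 pairs, on log axes that are linear below 0.01; orange, 1 partner called at an adjusted p under 0.05, grey, neither. Many ligands lie at 0 while their receptor lies above 0.1 FPKM, and the called pairs fall into a group with abundant ligands, such as Il33 (9.16 FPKM), and one with scarce ligands.

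Genes of the same pathways that carry other symbols were followed in 4 lists. Their counts stand beside 10.4% higher and 9.25% lower among all tested genes, and no list was tested as a set. Among 31 tested NF-kB subunits, inhibitors and TNF receptor adaptors 3 rose and 2 fell, with a median log2 fold change of -0.07. Traf1, an adaptor that binds TNF receptors and is itself a target of NF-kB, fell from 36.2, 29.1 and 40.4 CPM to 9.06, 5.91 and 6.94 CPM, a log2 fold change of -2.27 (SE 0.19, 4.83-fold lower, adjusted p = 0.000195, edgeR). Ripk3, the kinase of necroptosis, rose from 0.993, 1.18 and 0.88 CPM to 3.18, 2.62 and 2.47 CPM (log2 fold change 1.43, adjusted p = 0.00731). Traf3, which restrains the alternative NF-kB route, and Rel, an NF-kB subunit, rose by smaller amounts, with log2 fold changes of 0.75 (adjusted p = 0.0114) and 0.73 (adjusted p = 0.038). Without mouse 2 of each group Traf1 was still called (adjusted p = 0.00193), while Ripk3 (0.0524), Traf3 (0.0944) and Rel (0.231) were not. Rel was still called in 1 of the 6 fits without a mouse, the one without CON mouse 1 (0.0198), and its adjusted p reached 0.118 without T + E2 mouse 2; it was 0.0942 without CON mouse 2, 0.105 without CON mouse 3, and 0.067 and 0.0673 without T + E2 mice 1 and 3.

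Of 27 JAK, STAT, SOCS and PIAS genes, all tested, 5 rose and 2 fell, with a median of 0.02. Stat5a, a transcription factor downstream of several interleukin receptors, of prolactin and of growth hormone, rose from 351, 299 and 357 CPM to 980, 780 and 804 CPM, a log2 fold change of 1.35 (SE 0.13, 2.55-fold, adjusted p = 0.000371, edgeR). Its close relative Stat5b rose too (log2 fold change 0.94, adjusted p = 0.000588), as did the kinase Jak2 (0.89, adjusted p = 0.00149). Stat2, which carries interferon signals, fell (-0.75, adjusted p = 0.0035). All 4 were still called without mouse 2 of each group.

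In a list of 20 genes of IL-1 receptor signalling and the related IL-17 route 1 rose and 3 fell, with a median of -0.07. The gene that rose, Traf3ip2, is the adaptor of IL-17 receptors, and it went from 99.4, 97.1 and 99.2 CPM to 221, 188 and 238 CPM (log2 fold change 1.13, adjusted p = 0.000333, edgeR). Myd88, the adaptor of IL-1 family and Toll-like receptors, fell by 0.50 on the log2 scale (adjusted p = 0.0248), Pycard, the inflammasome adaptor that leads to the cleavage of IL-1 beta and IL-18, fell by 0.49 (adjusted p = 0.0302), and Tab1, a partner of the kinase TAK1, fell by 0.42 (adjusted p = 0.0347). Without mouse 2 of each group Traf3ip2 was still called (0.00298), and Myd88 (0.113), Pycard (0.103) and Tab1 (0.0965) were not. These 3 calls were also lost in some fits that left out 1 mouse, while the log2 fold changes stayed between -0.57 and -0.36. Myd88 was not called without CON mouse 2 (0.0651) or 3 (0.0822), Pycard without any 1 CON mouse (0.0572, 0.0786 and 0.0901) or without T + E2 mouse 1 (0.0845), and Tab1 without CON mice 1 (0.0963) or 3 (0.101) or T + E2 mice 1 (0.0825) or 2 (0.101). Of 34 cytokine and TNF family genes with other symbols 26 were tested, 2 rose and 2 fell. Osmr, the oncostatin M receptor, rose (log2 fold change 0.76, adjusted p = 0.00954, edgeR), while Cntfr, the ciliary neurotrophic factor receptor, fell (-0.97, adjusted p = 0.00459) and Ngfr, the neurotrophin receptor of the TNF receptor superfamily, fell (-0.92, adjusted p = 0.0446). Without mouse 2 of each group Cntfr was still called (0.0407), and Osmr (0.0686) and Ngfr (0.104) were not; Ngfr was still called in 1 of the 6 fits without a mouse, the one without T + E2 mouse 1 (0.0212), with adjusted p-values of 0.051 to 0.1 in the others. In each list the share called was read beside 10.4% higher and 9.25% lower among all tested genes.

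**Figure D5:**
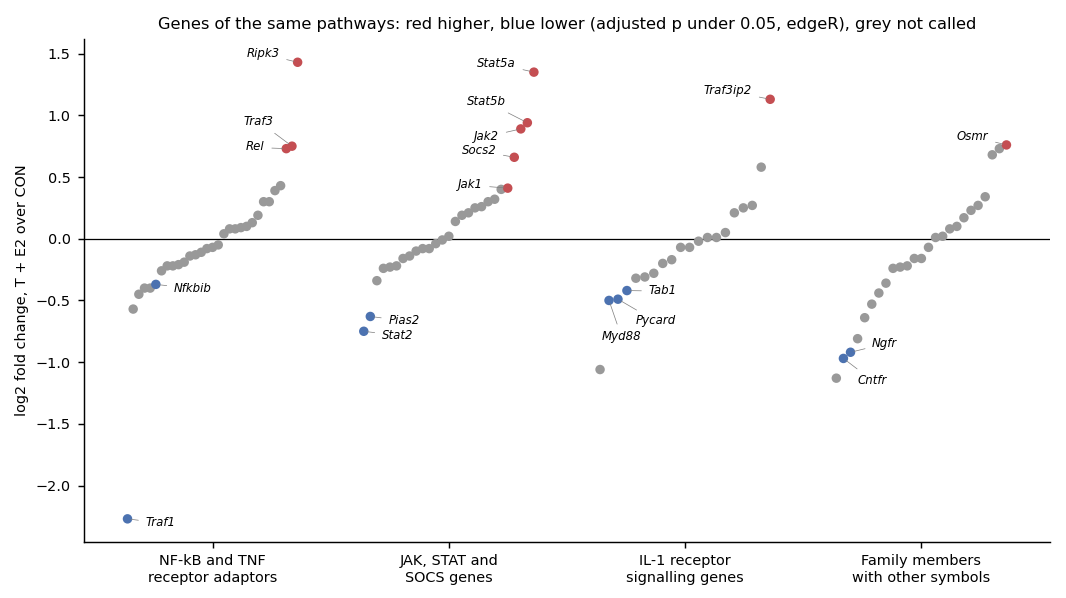
Log2 fold change (T + E2 over CON, edgeR) of the tested genes of 4 lists that are reported here, ordered within the list; red, higher, and blue, lower, at an adjusted p under 0.05; grey, not called. Most points lie near 0, with Traf1 (-2.27) the lowest and Ripk3 (1.43) the highest of those shown.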

How the data were processed

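Prostate RNA of 3 CON and 3 T + E2 mice was analysed from 1 table. The authors deposited whole-number read counts per gene, without normalization, and FPKM values, which the authors computed from the counts, gene length and depth. The submitters' processing notes name TopHat, Bowtie2 and HTSeq; versions, annotation and strand setting are not given in the sources used here. Coordinates lie on GRCm38, and 90 of 117 member rows found in GENCODE M21 had the same start and end.

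Counts were filtered by filterByExpr (minimum count 10, minimum total count 15), scaled by TMM and tested with the quasi-likelihood test of edgeR 4.0.16 (R 4.3.3), with Benjamini-Hochberg adjustment over 15580 genes. A gene was a DEG at adjusted p under 0.05 with log2 fold change above 1 or below -1. SE is the log2 fold change over the root of F. CPM are TMM-normalised, and levels of different genes were compared by FPKM only. Within each group, every pair of mice differed beyond sampling noise in its counts (chi-square 16.7 to 36.4 per degree of freedom). Simulated counts with known changes were used to test the procedure. With 3 mice against 3 an exact permutation test cannot give a p below 0.1, so none was used for single genes.

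Members and lists were chosen with earlier results of these data known. Named were all members with an adjusted p under 0.05, the 5 ligands and 5 receptors with the highest mean FPKM, a fixed list of well-known cytokines, the partners of called members, and up to 4 called genes with the largest change in each other list. Alternatives were DESeq2 1.42.0, limma 3.58.1 on log2(FPKM + 1) and log2(FPKM + 0.1), for genes reaching 0.1 FPKM in 3 or more mice, median-of-ratios and total-count scaling, no filter, a filter at an FPKM of 1, a replicate block, each mouse left out, and, added after seeing the data, both mice with seminal vesicle transcripts left out. Transcripts were compared with BLAST+ 2.17.0+ (at least 90% identity over at least 500 bases). Promoters of 10 of the 12 called members came from RefSeq. Some genes are not reported here.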

Additional observations from a re-analysis of the deposited data

How the results depend on the processing

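The 12 called members kept their direction in every alternative. Of 429 refits of the 29 named members that could be tested, 407 kept the call or the lack of one, 18 lost a call, 4 gained one and 0 changed direction. The 7 members higher in the T + E2 group became 4 without both mice with seminal vesicle transcripts, chosen after seeing the data, the 5 lower became 2, and 1 was lower at both thresholds (with all mice 0); over all genes, 1354 in place of 3061 were called with these 4 mice. For members lower at both thresholds, leaving out 1 mouse at a time gave 0 to 1, and for members lower by adjusted p alone 3 to 5. The labels do not say whether the replicate numbers pair the mice. Deviations from the group mean correlated at -0.0516 to 0.0463 between mice of the same number, and 1 of 6 mice was closest to its own number. With 3 mice a group these values cannot settle it, and mouse 2 of both groups held seminal vesicle transcripts. With the replicate block, 3 members were lower, without Tnfrsf11a and Tnfrsf19, as were 1 NF-kB gene (in place of 2), 1 IL-1 receptor signalling gene (in place of 3) and 1 gene with another symbol (in place of 2), and 2174 genes were called in all. Limma on log2(FPKM + 0.1) called 1 NF-kB gene higher in place of 3; the same, log2(FPKM + 1) and total counts each called 1 gene with another symbol lower. Without both mice, NF-kB genes numbered 0 higher and 1 lower, JAK genes 3 higher, IL-1 receptor signalling genes 0 lower, and genes with other symbols 1 higher and 1 lower. Leaving out 1 mouse at a time gave 0 to 3 IL-1 receptor signalling genes lower, 1 to 3 NF-kB genes lower and 1 to 3 genes with other symbols lower. On log2(FPKM + 1) the fold change of Tnfrsf23 was 0.58 in place of 1.38, since a pseudocount shrinks low genes. Causes of other changes were not tested. Most interleukins lay below what this depth can compare, and p-values rest on 3 mice a group.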
